A study of Homo sapiens with 4 samples.

Results

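Secreted inflammatory cytokines and chemokines were described here through 10 mRNAs chosen by symbol from the authors' table: the chemokines IL8, CXCL1, CXCL2 and CXCL3, the interleukins IL1A, IL1B, IL6 and IL11, and the cytokines LIF and CSF2. All 10 were found among 48162 listed genes, each symbol on 1 row, and all 10 were expressed at a mean of at least 1 FPKM, the limit for testing that 11790 genes met. FPKM are fragment counts scaled by gene length and by the depth of the library. The samples were MDA-MB-231 cells, an established human line from a triple-negative breast cancer. The 2 vehicle libraries came from cells given vehicle control for 24 h, and the 2 MGH-CP1 libraries from cells given 10 µM of the compound for 24 h. According to the series title, MGH-CP1 inhibits palmitoylation of TEAD, the family of proteins through which YAP and TAZ reach DNA. All libraries are from 1 line. The labels do not say whether replicates were separate cultures, so the error behind each p-value is that between libraries and may be technical.

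Chemokines of the CXC family with a Glu-Leu-Arg motif, to which IL8 and CXCL1 to CXCL3 belong, attract neutrophils through the receptors CXCR1 and CXCR2. IL-1α and IL-1β act on a shared receptor and switch on NF-κB and AP-1, transcription factors that in turn drive many cytokine genes. IL-6, IL-11 and LIF signal through the shared receptor chain gp130 to STAT3, and GM-CSF, the product of CSF2, acts on myeloid cells. Such mRNAs are commonly short-lived, because AU-rich elements in them are bound by decay factors such as tristetraprolin. Mesenchymal-like breast cancer lines are known to secrete several of these proteins.

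The 10 mRNAs did not move together. Using limma on log2(FPKM + 1), with Benjamini-Hochberg adjustment over the 11790 tested genes, 5 were lower with MGH-CP1 (IL8, CXCL1, CXCL3, IL11 and CSF2), 2 were higher (IL1A and IL1B) and 3 did not pass at an adjusted p of 0.05 (CXCL2, IL6 and LIF). Over all tested genes 25.1% were called lower, 20.0% higher and 45.0% in either direction. The median log2 fold change of the 10 was -0.24, beside -0.02 for all tested genes. In 8 of the 10 the MGH-CP1 and vehicle values did not overlap, beside 74.1% of all tested genes; 3 members lay wholly above vehicle (34.7% of all tested genes) and 5 wholly below (39.4%). The count of lower members was 3 without MGH-CP1 replicate 1 and 6 without vehicle replicate 2, which added CXCL2. In bulk RNA, fewer cells making a transcript and less of it per cell cannot be told apart.

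**Figure D1:**
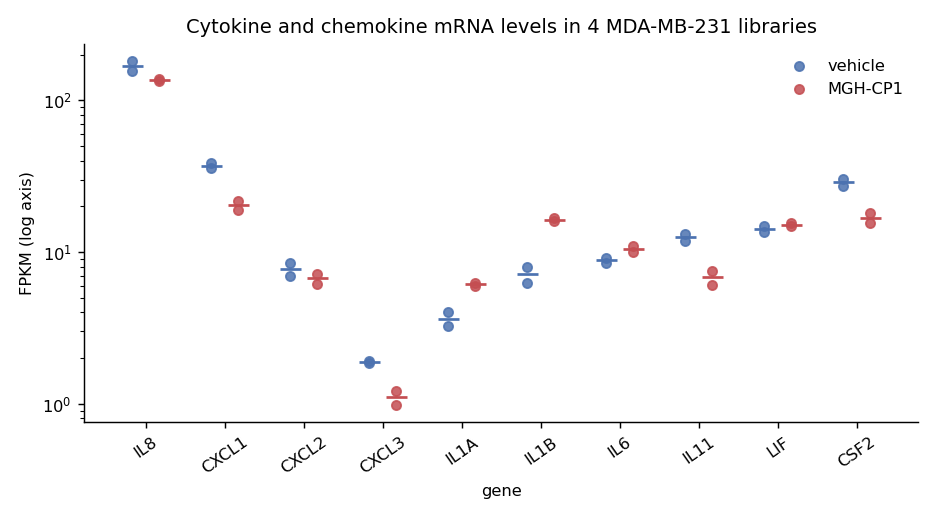
FPKM on a log axis for each of the 10 mRNAs, with 1 point per library (vehicle blue, MGH-CP1 red) and a bar at the mean of the 2 libraries of a group. IL8 is the most abundant in both groups, the IL1A and IL1B points lie higher with MGH-CP1, and those of CXCL1, CXCL3, IL11 and CSF2 lie lower.

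Library totals were 16790645 to 18485701 reads, recovered from the FPKM steps, and the members rested on 28 to 5195 reads per library. In the marker check, VIM, CD44 and AXL were high in every library (VIM at 147 to 199 FPKM), but they differed between groups. AXL had 546 and 559 FPKM in vehicle and 279 and 297 FPKM with MGH-CP1 (log2 fold change -0.94 ± 0.06). VIM and CD44 were called higher (log2 fold change 0.30 ± 0.08 and 0.29 ± 0.06). The oestrogen receptor gene ESR1 had at most 1 read and the progesterone receptor gene PGR had 0. Of the genes listed as low in this line, CDH1 was at 0.489 to 0.895 FPKM, but EPCAM was at 7.91 to 9.95 FPKM and ERBB2 at 24.5 to 26.3 FPKM. Leukocyte markers summed to 3.61 to 3.64 FPKM in vehicle and 3.65 to 4.02 with MGH-CP1, mostly CD14 at 2.84 to 3.24 FPKM. LYZ had 0.354 and 0.272 FPKM in vehicle and 0.756 and 0.732 FPKM with MGH-CP1, and 4 of the 8 markers were below 3 reads in every library. The 6 endothelial and fibroblast markers found in the table summed to 1.88 to 2.19 and 2.19 to 2.31 FPKM. Transcripts of the mitochondrial genome took 0.645% and 0.676% of reads in vehicle and 1.54% and 1.81% with MGH-CP1; the part of these and of LYZ in the results below was not tested.

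IL8 was the most abundant of the 10 mRNAs. IL8 (ENSG00000169429, hg19 chromosome 4, 74606223 to 74609433, plus strand) stood at 155 and 181 FPKM in vehicle and 134 and 139 FPKM with MGH-CP1. The groups did not overlap, but the gap between the closest libraries was smaller than the gap between the vehicle libraries. The fold difference of the means was 1.24 (log2 fold change -0.30 ± 0.08 SE; limma, adjusted p = 0.0203). The call was lost without MGH-CP1 replicate 1 (limma, adjusted p = 0.113), without MGH-CP1 replicate 2 (limma, adjusted p = 0.0672), with no filter on low values (limma, adjusted p = 0.119) and with no variance trend (limma, adjusted p = 0.0512). Only 2.43% of tested genes had a higher mean FPKM over the 4 libraries.

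CXCL1, first described as a melanoma growth factor, fell about as far as IL11. CXCL1 (ENSG00000163739, chromosome 4, 74735110 to 74736959, plus strand) stood at 36.0 and 38.4 FPKM in vehicle and at 19.0 and 21.8 FPKM with MGH-CP1. Every vehicle value lay above every MGH-CP1 value, with a gap several times the spread within either group. The means were 37.2 ± 1.69 and 20.4 ± 2.01 FPKM (SD, n = 2), a 1.82-fold difference (log2 fold change -0.84 ± 0.08; limma, adjusted p = 0.000222), and 3.76% of tested genes fell further.

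The close paralogs CXCL3 and CXCL2 gave different calls. CXCL3 (ENSG00000163734, chromosome 4, 74902306 to 74904524, minus strand) had 1.85 and 1.92 FPKM in vehicle and 0.987 and 1.22 FPKM with MGH-CP1, from 53 to 56 and 28 to 34 reads. It was lower in both MGH-CP1 libraries (1.71-fold; log2 fold change -0.46 ± 0.13; limma, adjusted p = 0.0218). CXCL3 no longer passed without MGH-CP1 replicate 1 (limma, adjusted p = 0.128) and with no filter (limma, adjusted p = 0.0915). On the log2(FPKM + 1) scale a low gene is compressed: with a pseudocount of 0.1 the value for CXCL3 was -0.73. CXCL2 (ENSG00000081041, chromosome 4, 74962752 to 74965010, minus strand) had 8.48 and 6.99 FPKM in vehicle and 7.22 and 6.20 FPKM with MGH-CP1. These values overlapped, and the log2 difference of -0.18, with a 95% interval of -0.44 to 0.08, did not pass (limma, adjusted p = 0.228). Whether CXCL2 and CXCL3 differed in their response was not tested. Without vehicle replicate 2, which leaves 1 vehicle library, the log2 fold change of CXCL2 was -0.30.

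Sequence similarity limits how far these paralogs can be separated. Among the longest protein-coding transcripts of GENCODE 29, matched by gene identifier, 5.73% of the 50-base windows of CXCL1, 9.24% of those of CXCL2 and 5.26% of those of CXCL3 occurred unchanged in another of the 10 genes. IL8 and the other 6 members shared no such window. The authors' length for CXCL3, 1641 bases, is that of a transcript typed as a processed transcript there, whereas its longest protein-coding transcript has 1075 bases. Its FPKM relative to other genes depends on that choice, while its ratio between groups does not.

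Together the 4 chemokines summed to 202 and 229 FPKM in vehicle and 161 and 168 FPKM with MGH-CP1. IL8 made up 77.0% and 79.3% of that sum in vehicle and 83.1% and 82.6% with MGH-CP1. The share of CXCL1 was 17.9% and 16.8% in vehicle and 11.8% and 12.99% with MGH-CP1. The mix thus held relatively more IL8 and less CXCL1 in both MGH-CP1 libraries, while all 4 of these mRNAs had a lower mean there.

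The chemokine genes lie within a cluster of CXC genes on chromosome 4. The authors listed 15 genes between the start of IL8 and the end of CXCL2, 9 of them protein-coding. Apart from the 4 members, none met the limit for testing, and their highest group mean was 0.381 FPKM (PF4, in vehicle). The cluster members CXCL6 and PPBP had 1 read in all, CXCL5 had 15 and PF4V1 had 0. The IL-1 cluster on chromosome 2 likewise held few expressed genes: between IL1A and IL1RN 14 genes were listed, and the 12 that are not members averaged at most 0.273 FPKM in a group (IL1RN, with MGH-CP1).

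**Figure D2:**
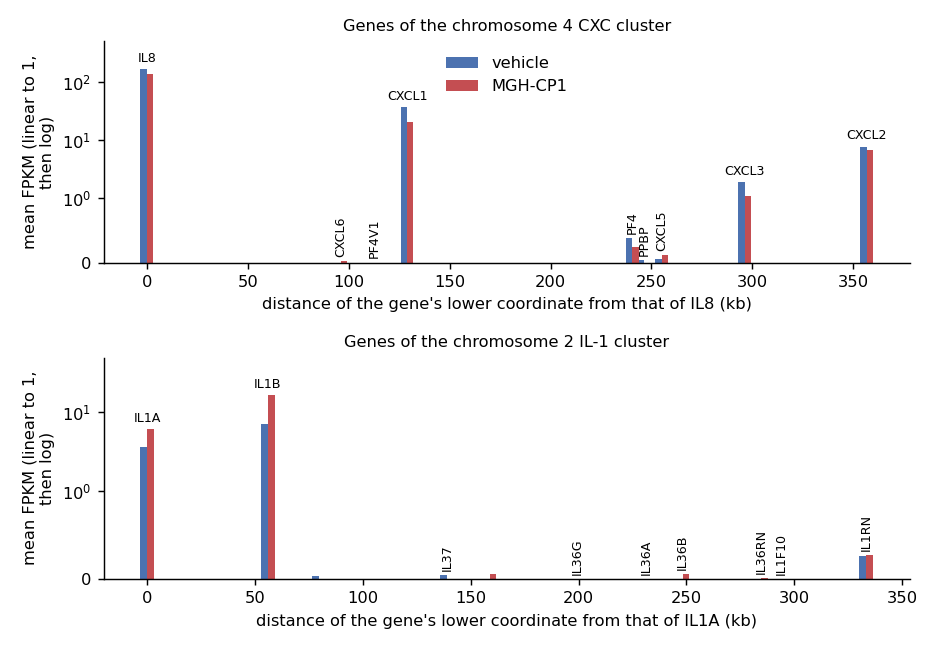
Mean FPKM per group (vehicle blue, MGH-CP1 red; linear up to 1 and logarithmic above) for each gene of the chromosome 4 and chromosome 2 clusters, against its distance in kb from IL8 or IL1A, measured between the lower hg19 coordinates; only protein-coding genes are named. IL8, CXCL1, CXCL3 and CXCL2 rise above neighbours at 0.381 FPKM or less, and IL1A and IL1B above neighbours at 0.273 FPKM or less.

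The stretches of 150 bases before the gene starts are shown for the 4 chemokines, each of which holds kappa-B letters, and for IL11 and IL1B, the gp130 cytokine that fell and the member that rose most. They are RefSeq sequences on GRCh38.p14, another build than the hg19 coordinates above, written 5′ to 3′ on the gene's strand, and capitals mark letters that match a searched motif (AP-1, kappa-B or TATA box).
IL8, listed by RefSeq as CXCL8 (chr4:73740419-73740568, plus strand): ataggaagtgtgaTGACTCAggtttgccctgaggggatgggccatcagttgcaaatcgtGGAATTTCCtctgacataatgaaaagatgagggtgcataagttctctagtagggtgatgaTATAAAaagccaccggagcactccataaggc
CXCL1 (chr4:73869243-73869392, plus strand): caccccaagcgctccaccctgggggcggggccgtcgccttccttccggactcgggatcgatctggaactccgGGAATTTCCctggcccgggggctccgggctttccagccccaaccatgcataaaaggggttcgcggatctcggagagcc
CXCL2 (chr4:74099196-74099345, minus strand): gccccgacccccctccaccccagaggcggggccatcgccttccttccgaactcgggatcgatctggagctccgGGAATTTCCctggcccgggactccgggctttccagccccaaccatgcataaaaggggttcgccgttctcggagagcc
CXCL3 (chr4:74038690-74038839, minus strand): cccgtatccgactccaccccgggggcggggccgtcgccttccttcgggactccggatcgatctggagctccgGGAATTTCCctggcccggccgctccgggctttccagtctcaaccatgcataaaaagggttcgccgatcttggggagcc
IL11 (chr19:55370464-55370613, minus strand): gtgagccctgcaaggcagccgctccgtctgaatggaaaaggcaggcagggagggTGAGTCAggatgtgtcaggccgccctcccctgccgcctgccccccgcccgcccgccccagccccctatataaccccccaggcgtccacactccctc
IL1B (chr2:112836780-112836929, minus strand): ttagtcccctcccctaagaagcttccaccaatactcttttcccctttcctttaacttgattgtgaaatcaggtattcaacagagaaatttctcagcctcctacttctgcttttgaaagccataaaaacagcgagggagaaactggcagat
Motifs of 4 kinds were searched on both strands in windows of 250 bases before to 50 after the start, available for 9 members; for IL1A, with more than 1 listed start, the most upstream was used. The kappa-B letters GGANTTTCC were present in 5 of the 9 (IL8, CXCL1, CXCL2, CXCL3 and IL6), in 1.67% of 27305 windows of all genes and in 1.81% of 9026 windows of tested genes. In the 3 CXCL genes they began 77 or 78 bases before the start, and in IL8 91 bases before it. The AP-1 letters TGANTCA were present in IL8, IL11 and IL1A, 3 of the 9, beside 7.72% of all windows and 4.31% of those of tested genes. TATAAA was present in IL8 and IL1A (12.0% of all windows, 5.07% of those of tested genes), and the TEAD letters GGAATG in 0 of the 9 windows (14.1% of all windows, 10.8% of those of tested genes). TATAAA began 31 bases before the start in IL8 and 239 bases before it in IL1A. Only exact letters were searched, so close variants in the other windows went unmarked. No searched motifs overlapped. The kappa-B letters occurred in members that were called lower and in CXCL2 and IL6, which did not pass; a match is a description of these letters and not of a bound site.

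**Figure D3:**
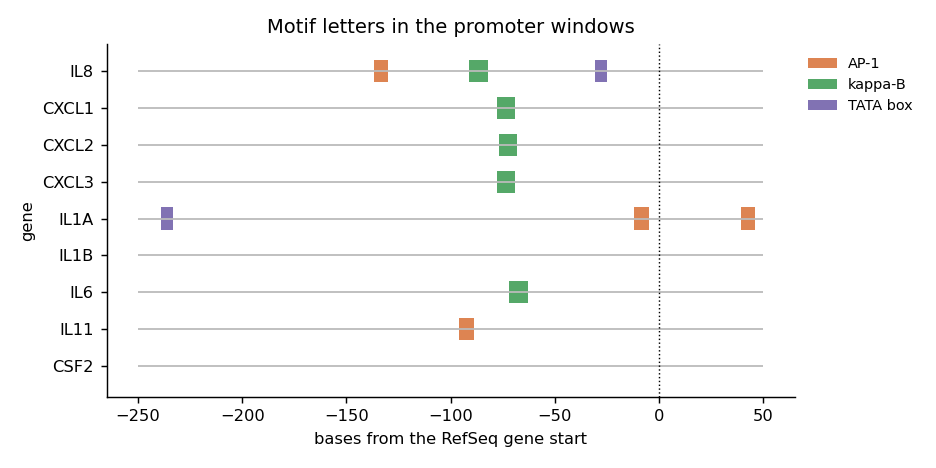
Positions of AP-1, kappa-B and TATA box letters in the RefSeq promoter windows of 9 members, in bases from the gene start (dotted line). The kappa-B letters of CXCL1, CXCL2 and CXCL3 sit at almost the same distance from the start, 77 or 78 bases upstream, and IL1B and CSF2 hold none of the searched letters.

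The IL-1 genes were the members that rose. IL1B (ENSG00000125538, chromosome 2, 113587328 to 113594480, minus strand), which encodes the IL-1β precursor, had 6.30 and 7.96 FPKM in vehicle and 16.7 and 15.9 FPKM with MGH-CP1. Both treated libraries lay far above both vehicle libraries. The means were 7.13 ± 1.17 and 16.3 ± 0.558 FPKM (SD, n = 2), a 2.29-fold rise (log2 fold change 1.10 ± 0.10; limma, adjusted p = 0.000225), and 0.696% of tested genes rose further. IL1A (ENSG00000115008, chromosome 2, 113531492 to 113542167, minus strand), whose product IL-1α is active also in its uncleaved form, had 3.26 and 4.01 FPKM in vehicle and 6.23 and 5.996 FPKM with MGH-CP1. The groups did not overlap, and the means differed 1.68-fold (log2 fold change 0.62 ± 0.11; limma, adjusted p = 0.00293). The ratio of IL1B to IL1A was 1.93 and 1.99 in vehicle and 2.68 and 2.66 with MGH-CP1. Both IL-1 calls held in each alternative that tested the gene.

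Of the 3 gp130 cytokines, only IL11 was called; whether their responses differed was not tested. IL11 (ENSG00000095752, chromosome 19, 55875757 to 55881831, minus strand), a cytokine linked to fibrosis and bone metastasis, had 11.9 and 13.1 FPKM in vehicle and 6.11 and 7.55 FPKM with MGH-CP1. Its groups were well apart (1.83-fold lower; log2 fold change -0.79 ± 0.10; limma, adjusted p = 0.000993). IL6 (ENSG00000136244, chromosome 7, 22765503 to 22771621, plus strand), an inducer of the acute phase response, had 9.18 and 8.46 FPKM in vehicle and 10.0 and 11.0 FPKM with MGH-CP1. Both treated values were above both vehicle values, yet the log2 difference of 0.23, with a 95% interval of 0.04 to 0.42 before adjustment, did not pass (limma, adjusted p = 0.0547). It passed in 3 of 11 alternatives, with median-ratio rescaling (limma, adjusted p = 0.0395), among genes of at least 5 FPKM (limma, adjusted p = 0.0463) and without vehicle replicate 1 (limma, adjusted p = 0.0310; highest adjusted p over the alternatives 0.302). The ratio of IL6 to IL11 was 0.771 and 0.647 in vehicle and 1.64 and 1.45 with MGH-CP1, so the order of these mRNAs was exchanged in both libraries.

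LIF (ENSG00000128342, chromosome 22, 30636436 to 30642840, minus strand), known for holding stem cells undifferentiated, had 14.95 and 13.5 FPKM in vehicle and 14.9 and 15.4 FPKM with MGH-CP1. The values overlapped, the log2 difference was 0.09 with a 95% interval of -0.09 to 0.26, and it did not pass (limma, adjusted p = 0.370). CSF2 (ENSG00000164400, chromosome 5, 131409483 to 131411859, plus strand) had 27.4 and 30.5 FPKM in vehicle and 18.2 and 15.5 FPKM with MGH-CP1. It was lower in both treated libraries, from 28.96 ± 2.17 to 16.8 ± 1.88 FPKM (SD, n = 2; 1.72-fold; log2 fold change -0.75 ± 0.09; limma, adjusted p = 0.000638). In vehicle the CSF2 level was 4.35 and 3.83 times that of IL1B, and with MGH-CP1 1.09 and 0.973 times.

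**Figure D4:**
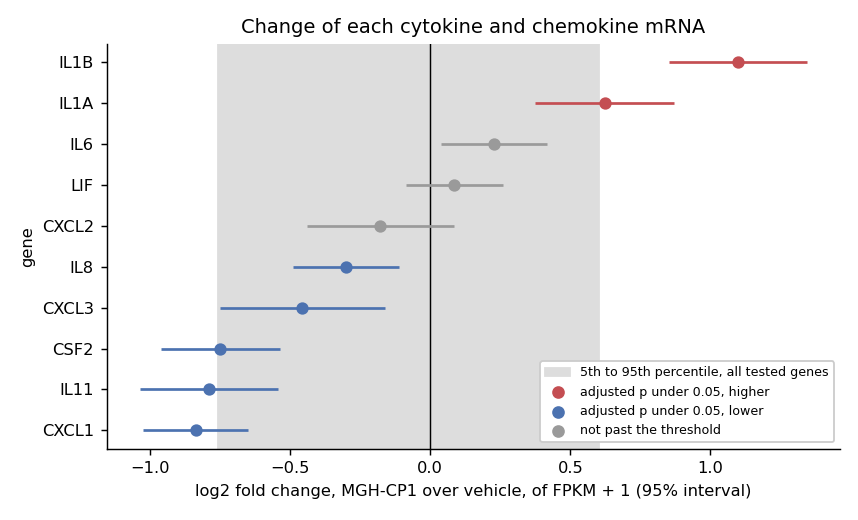
Log2 fold change of FPKM + 1, MGH-CP1 over vehicle, with its 95% limma interval for each member (red higher, blue lower, grey not past the threshold); the grey band spans the 5th to 95th percentile of all tested genes, -0.76 to 0.60. CXCL1 (-0.84) and IL11 (-0.79) lie below the band, CSF2 (-0.75) at its lower edge, and IL1B (1.10) and IL1A (0.62) above it.

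By level per gene length, the order in vehicle was IL8, CXCL1, CSF2, LIF, IL11, IL6, CXCL2, IL1B, IL1A and CXCL3. The values of IL6 and CXCL2, and of CXCL2 and IL1B, overlapped, so their order is not resolved; the other neighbours did not overlap. With MGH-CP1 the order was IL8, CXCL1, CSF2, IL1B, LIF, IL6, IL11, CXCL2, IL1A and CXCL3. There CSF2 and IL1B overlapped, as did IL11 and CXCL2, and CXCL2 and IL1A. IL1B moved from the eighth place to the fourth, and IL11 from the fifth to the seventh.

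AU-rich sequence was common among the members. The nonamer TTATTTATT, the DNA form of 1 strict AU-rich element, was found in the longest protein-coding transcript of 8 of the 10 members. It was also found in 9.91% of the 11544 tested genes with a GENCODE 29 transcript. Tested genes without a protein-coding transcript were represented there by their longest one. IL11 held 6 copies, CXCL2 5, CXCL1 and CSF2 3 each, and IL6 and IL1A 0. IL1B and LIF had 2 copies each, so that of the 2 members called higher 1 held the nonamer, beside all 5 called lower. The shorter AU-rich letters ATTTA, counted in the members only, were present in all 10, with 6 copies in IL6 and 5 in IL1A. The difference between calls in the nonamer thus rests on IL1A alone. IL1B, called higher, held more copies than IL8 and CXCL3, called lower with 1 copy each. The average transcript compared had 3947 bases, longer than all members but LIF.

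Genes of a mixed list of RNA-binding and decay factors, not all of which bind such elements, changed in both directions. Of the 11 tested genes of this mRNA decay list 4 rose and 4 fell (median log2 fold change -0.04), beside 20.0% and 25.1% of all tested genes. ZFP36, which encodes tristetraprolin, had 6.09 and 5.60 FPKM in vehicle and 11.3 and 12.7 FPKM with MGH-CP1 (log2 fold change 0.93 ± 0.09; limma, adjusted p = 0.000222). HNRNPD, encoding the AU-rich binding protein AUF1, had 85.7 and 81.1 FPKM in vehicle and 51.2 and 47.9 FPKM with MGH-CP1 (log2 fold change -0.74 ± 0.06). The decay-promoting KHSRP was lower by a log2 fold change of -0.55 ± 0.06, and the cytokine mRNA endonuclease gene ZC3H12A higher by 0.29 ± 0.06. That last call was lost without either MGH-CP1 library (limma, adjusted p = 0.0626 and 0.0541), where the count of higher decay genes was 2.

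Among transcription factors and feedback genes of the NF-κB, C/EBP and AP-1 families, 9 of 20 tested genes rose and 4 fell (median log2 fold change 0.14). The shares over all tested genes were 20.0% and 25.1%. The AP-1 subunit gene FOSL1 had 223 and 196 FPKM in vehicle and 82.2 and 77.1 FPKM with MGH-CP1 (log2 fold change -1.38 ± 0.08). Another AP-1 subunit gene, JUND, had 88.5 and 74.4 FPKM in vehicle and 160 and 166 FPKM with MGH-CP1 (log2 fold change 1.00 ± 0.09), while JUN, at 72.5 to 77.2 FPKM in the 4 libraries, did not pass (limma, adjusted p = 0.597). CEBPD and CEBPB, activators of IL6 and of acute phase genes, rose by 0.73 ± 0.07 and 0.71 ± 0.09 on the log2 scale. Of the NF-κB subunit genes, NFKB1 was lower (log2 fold change -0.53 ± 0.08) and RELA higher (0.25 ± 0.06), while NFKB2, RELB and REL did not pass. The RELA call was lost without either MGH-CP1 library. The feedback gene TNFAIP3 rose by 0.43 ± 0.08, and the inhibitor gene NFKBIA, at 91.3 to 106 FPKM, did not pass (limma, adjusted p = 0.158). Among related genes, NFKBIB and NFKBIE were called lower (log2 fold change -0.46 ± 0.11 and -0.23 ± 0.06). BCL3 was called higher (0.69 ± 0.06) and NFKBIZ did not pass. Without MGH-CP1 replicate 2 the count of lower genes was 2.

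**Figure D5:**
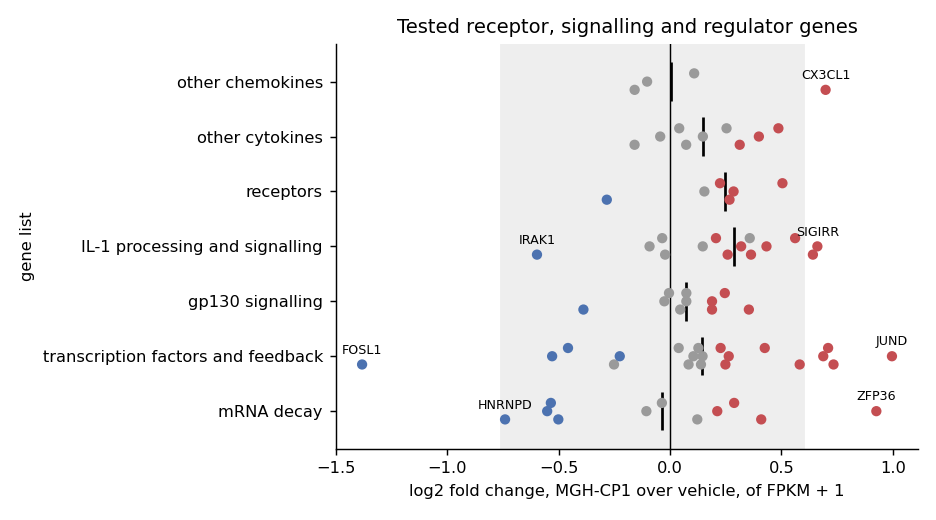
Log2 fold change of FPKM + 1, MGH-CP1 over vehicle, for the 74 tested genes of 7 lists related to the members (red called higher, blue called lower, grey not called); the black mark is the list's median and the grey band spans the 5th to 95th percentile of all tested genes. List medians lie between -0.04 (mRNA decay) and 0.29 (IL-1 processing and signalling), with FOSL1 at -1.38 and JUND at 1.00 as the extremes.

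Receptors were present for some of these ligands and not for others. CXCR1 and CXCR2, the receptors for IL8 and CXCL1 to CXCL3, had 0 reads in every library, which allows up to 3 reads each. Of 6 tested receptor genes 4 rose and 1 fell (median log2 fold change 0.25), beside 20.0% and 25.1% of all tested genes. IL6ST, which encodes gp130, had 69.0 and 78.5 FPKM in vehicle and 58.9 and 61.7 FPKM with MGH-CP1 (log2 fold change -0.28 ± 0.07; limma, adjusted p = 0.0175), whereas its partner LIFR had 7.24 and 9.36 FPKM in vehicle and 11.7 and 12.5 FPKM with MGH-CP1 (0.50 ± 0.11; limma, adjusted p = 0.00981). OSMR, another gp130 partner, rose by 0.29 ± 0.06. The IL-1 receptor gene IL1R1 and its accessory chain IL1RAP were called higher by 0.22 ± 0.08 and 0.27 ± 0.07. The GM-CSF receptor gene CSF2RA did not pass (12.0 to 14.3 FPKM, limma, adjusted p = 0.121). The gene of the other chain of this receptor, CSF2RB, had 0 to 2 reads per library and was not tested. IL6R, at 0.121 to 0.259 FPKM, and IL11RA, at 0.324 to 0.673 FPKM, were below the limit for testing. The number of receptor genes called higher was 1 without either MGH-CP1 library and 0 with no filter, and the IL6ST call was lost there too (limma, highest adjusted p = 0.112). The calls of OSMR, IL1RAP and IL1R1 were likewise lost in these 3 fits (limma with no filter, adjusted p = 0.0571, 0.0515 and 0.0954). Over all 11 alternatives the IL1R1 call was lost in 5 and the IL1RAP call in 4. LIFR did not pass with no filter (limma, adjusted p = 0.0836). OSMR is overlapped by RICTOR on the opposite strand, so their reads may not be told apart.

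Genes of IL-1 processing and signalling had 8 of 14 tested members higher and 1 lower (median log2 fold change 0.29). All tested genes had 20.0% higher and 25.1% lower. SIGIRR, an inhibitory receptor of this pathway, had 2.84 and 3.32 FPKM in vehicle and 5.48 and 5.40 FPKM with MGH-CP1 (log2 fold change 0.66 ± 0.10), and IRAK2, which relays the receptor signal, rose by 0.64 ± 0.07. Its relative IRAK1 had 130 and 128 FPKM in vehicle and 83.2 and 87.1 FPKM with MGH-CP1 (log2 fold change -0.60 ± 0.06). CASP1, the protease that matures IL-1β, had 1 to 5 reads per library, and the receptor antagonist gene IL1RN 5 to 13 reads, so neither was tested. NLRP3, an inflammasome sensor, had 1.10 and 1.09 FPKM in vehicle and 0.562 and 0.355 FPKM with MGH-CP1, from 26 to 88 reads. Its mean was 2.39-fold lower with MGH-CP1 and the groups did not overlap, but its mean over the 4 libraries was under the limit for testing. Without MGH-CP1 replicate 1 or without MGH-CP1 replicate 2 the count of higher genes was 4.

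In the gp130 signalling list 4 of 10 tested genes rose and 1 fell (median log2 fold change 0.07), beside 20.0% and 25.1% of all tested genes. PIAS3, a STAT3 inhibitor, rose by 0.35 ± 0.07 and the kinase gene JAK1 by 0.25 ± 0.06. STAT3, the transcription factor downstream, was called higher by 0.19 ± 0.06 (limma, adjusted p = 0.0281). The calls of JAK1 and STAT3 did not survive leaving out either of the MGH-CP1 libraries. STAT3 also did not pass with no filter (limma, adjusted p = 0.0585) or with no variance trend (limma, adjusted p = 0.0733). SOCS3, a STAT3-induced feedback gene, at 11.8 to 12.9 FPKM, did not pass (limma, adjusted p = 0.412). PTPN11 was lower (log2 fold change -0.39 ± 0.07), but RPL6 overlaps it on the opposite strand at a mean of 355 FPKM, so reads of the pair may not be told apart. Without MGH-CP1 replicate 1 or replicate 2, the number of higher genes was 1.

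Of 4 tested further chemokines 1 rose, and of 9 tested further cytokines 3 rose, beside 20.0% of all tested genes. None of the 13 was called lower by limma, beside 25.1% of all tested genes. Nor was any called lower by voom on recovered reads, and 0 of 13 fell at an unadjusted p under 0.05. The membrane-bound chemokine gene CX3CL1 had 4.68 and 4.06 FPKM in vehicle and 7.61 and 7.78 FPKM with MGH-CP1 (log2 fold change 0.70 ± 0.09; limma, adjusted p = 0.00094). CSF1, the macrophage growth factor, was more abundant than IL8, with 277.9 and 278.2 FPKM in vehicle and 389 and 391 FPKM with MGH-CP1 (0.49 ± 0.06). TNFSF10, encoding the death ligand TRAIL, was called higher by 0.31 ± 0.06, a call lost without MGH-CP1 replicate 1 (limma, adjusted p = 0.0694). CTF1, a cytokine of the gp130 family, was called higher by 0.40 ± 0.14 by a narrow margin (limma, adjusted p = 0.0495; highest adjusted p over the alternatives 0.287). The remaining 17 chemokines and 14 cytokines averaged under 1 FPKM over the 4 libraries and were not tested, and their groups differed in either direction. CCL2, a monocyte attractant, had 20 and 25 reads in vehicle and 9 and 6 with MGH-CP1, a 2.94-fold lower mean FPKM, while CCL26, an eosinophil attractant, had 4 and 3 reads in vehicle and 12 and 16 with MGH-CP1. The count of further cytokines called higher was 1 without MGH-CP1 replicate 1.

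Over the 4 libraries, the protein-coding genes whose profile was most like that of IL8, by Euclidean distance between centred log2(FPKM + 1) values, were TRPM7 (distance 0.0206), KIAA1430 (0.0245), ZNF37A (0.0302), IL6ST (0.0329) and FAM222A (0.0341). The median distance over protein-coding tested genes was 0.410. IL6ST is the gp130 gene described above. Like IL8, it was higher in the second vehicle library than in the first and lowest in the first MGH-CP1 library. Its distance was computed from these same values.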

How the data were processed

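RNA sequencing of poly(A) RNA was deposited as 1 table of FPKM values, which the authors scaled by gene length and library. The submitters' processing notes name CASAVA 1.8, STAR and hg19. For STAR's version, the counter, its strand setting and the annotation, nothing is given in the sources used here. FPKM times length gave whole multiples of 1 step in 100% of values above 0 (tolerance 0.001), taken as reads. Of other per-sample columns there were 0.

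The test was limma 3.58.1 in R 4.3.3 on log2(FPKM + 1) with group as the only term, genes of mean FPKM at least 1 and a variance trend (2 residual degrees of freedom before moderation), called at an adjusted p under 0.05. The code was run on simulated counts with planted changes, which checked that it recovers such changes and not the calls made here. Alternatives were a pseudocount of 0.1, other filters, rescaling, voom on recovered reads, no trend, a replicate block and leaving out each library. Fits without 1 library had a single library in that group, so their residual spread came from the other group only. Calls gained or lost in those fits carry that limit. Lists are described by counts and medians, beside all tested genes. Members and lists were chosen with earlier results of these data known. Named were all members, the 3 largest called changes per list, a set of partners named in every case and the 5 genes most like the most abundant member. CASP1, NLRP3, CCL2, CCL26, NFKB2, RELB, REL, NFKBIB, NFKBIE, NFKBIZ, BCL3, the marker genes and the cluster neighbours were named after their values were seen. The AU-rich element and shared-window counts were also chosen after seeing the data, and the comparison of protein sequences was not made here. Promoters were matched by gene identifier and symbol (9 of 10 members; LIF was not matched). Figures used Python 3.11.15 and matplotlib 3.10.9.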

Additional observations from a re-analysis of the deposited data

How the results depend on the processing

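Over 11 alternatives, none of the 10 members changed direction. Calls of CXCL1, IL11, CSF2 and IL1B held in all 11, and those of IL1A in the 10 that tested it. Of 108 member values, 6 lost a call (IL8 and CXCL3) and 4 gained one (IL6 and CXCL2). With no filter 1568 genes were called higher, 3 members lower, 2 further chemokines, 0 receptors and 5 IL-1 genes higher, and 0 receptors lower. Among genes of at least 5 FPKM, which fewer list members meet, 5 IL-1 genes were higher, and with no variance trend 2 gp130 genes. Leaving out 1 library at a time, the counts ran from 1460 to 2556 genes higher (1524 and 1460 without MGH-CP1 replicate 1 and 2) and from 3 to 6 members lower. Counts of higher genes ran from 1 to 4 further cytokines, 1 to 3 receptors, 4 to 9 IL-1 genes, 1 to 4 gp130 genes and 2 to 4 decay genes, and counts of lower genes from 0 to 1 receptors and 2 to 5 transcription factors. The cause of these shifts was not tested. Same-numbered libraries deviated together weakly (r = 0.05 across genes); with a replicate block 2453 genes were higher and 3036 lower, and members stood at 2 higher and 5 lower. At 28 reads, CXCL3 was the least precisely measured member.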
